A study of Mus musculus with 3 samples.

Results

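The cluster Fib holds the resident medullary fibroblasts of the mouse renal medulla, and it was followed here through reversible unilateral ureteral obstruction (R-UUO). Its members were all cells that the deposited annotation places in the cluster Fib, 6176 of 181257 cells. They were 4710 of 78631 healthy control cells, 716 of 59132 cells at day 28 and 750 of 43494 cells at day 84. In the same annotation the cell type of the fibroblast lineage joins the clusters Fib, MyoFib (11218 cells) and Peri (1972 cells).

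Dissected medullas of male BALB/c mice were profiled by single-cell RNA sequencing of fixed cells with gene probes, in 4 pools of healthy control tissue, 4 pools at 28 days after R-UUO and 2 pools at 84 days. Each pool combined 3 to 4 medullas, so single animals cannot be separated. For R-UUO a clamp was placed on the left ureter at an age of 12 to 13 weeks and released after 7 days in the study's main BALB/c model, the interval for these pools not being given separately. The study's methods describe removal of the other kidney 10 days later in long-term studies, whereas the control group was labelled only as healthy. The pools held 13013 to 24338 cells. The median UMI count per cell, a UMI being a tag that counts 1 captured molecule, was 1273 over control cells (1139 to 1578 between pools), 2092 at day 28 (1566 to 3302) and 821 at day 84 (751 to 911). Of the 6176 Fib cells, 3288 (53.2%) carried a droplet barcode also found in another pool of their own group and 723 (11.7%) one found in another group. Pools of a group thus appear to share droplet runs, and the run and the condition cannot be told apart. Expression of single genes was not analysed here, so the labelled identity could not be checked against Pdgfra and Pdgfrb, the receptors for platelet-derived growth factor that mark these cells.

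Medullary fibroblasts lie in the interstitium between the loops of Henle, the collecting ducts and the vasa recta. They make matrix and prostaglandins, and the lipid-laden interstitial cells of the inner medulla belong to them. Myofibroblasts are contractile, matrix-producing cells that appear in injured kidney, and pericytes are mural cells attached to capillaries and vasa recta.

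The first question was how much of the medullary cell yield Fib made up before and after R-UUO. Fib cells were a smaller share of the medulla at both times. In the control pools 1 to 4 they made up 7.13%, 3.71%, 5.0% and 8.32% of all cells. In the day 28 pools they made up 0.922%, 0.856%, 2.29% and 0.623%, and in the day 84 pools 1.17% and 2.18%. Every pool after R-UUO lay below every control pool, with the day 84 pools inside the range of day 28. The lowest share, in day 28 pool 4, rested on 97 of 15579 cells (95% exact binomial interval 0.505% to 0.759%, counting error only).

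The control mean was 6.04% ± 2.07 (SD, n = 4 pools). The day 28 mean was 1.17% ± 0.758 (SD, n = 4) and the day 84 mean 1.68% ± 0.714 (SD, n = 2). At day 28 the log2 odds of being a Fib cell fell by 2.55 (standard error 0.458, adjusted p = 0.00118 in limma, 0.0286 in the exact permutation test), which is 5.86-fold lower odds. In that comparison 88% of the 25 clusters passed the threshold and 36% were lower, so most clusters changed in share. Its fall was the third largest of the 25, after EndoVR/papilla, the vasa recta and papillary endothelium (-3.12), and deepIM-CD, the deep inner medullary collecting duct (-2.56). At day 84 the log2 odds fell by 1.91 (standard error 0.561, limma adjusted p = 0.0223, 3.76-fold lower odds), where 48% of clusters passed and 12% were lower. The exact permutation p was 0.133, the smallest that 4 pools against 2 can give. Day 84 differed from day 28 by 0.64 log2 odds (standard error 0.561, adjusted p = 0.394), a comparison in which 8% of clusters passed. Leaving out a day 84 pool leaves a single pool at that time, and the spread then comes from the control and day 28 pools only. Without day 84 pool 1 the day 84 change was -1.46 and did not pass. Among cells with at least 1000 UMIs it was -3.24, and the difference of day 84 from day 28 had the other sign (-0.26, adjusted p = 0.759). This restriction by itself lowers the Fib share at day 84, since 86.2% and 84.9% of Fib cells but 54.9% and 65.6% of other cells there had fewer than 1000 UMIs, against 18.1% to 42.9% and 17.9% to 36.4% in the control pools and 11.7% to 69.1% and 4.98% to 22.8% at day 28.

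**Figure D1:**
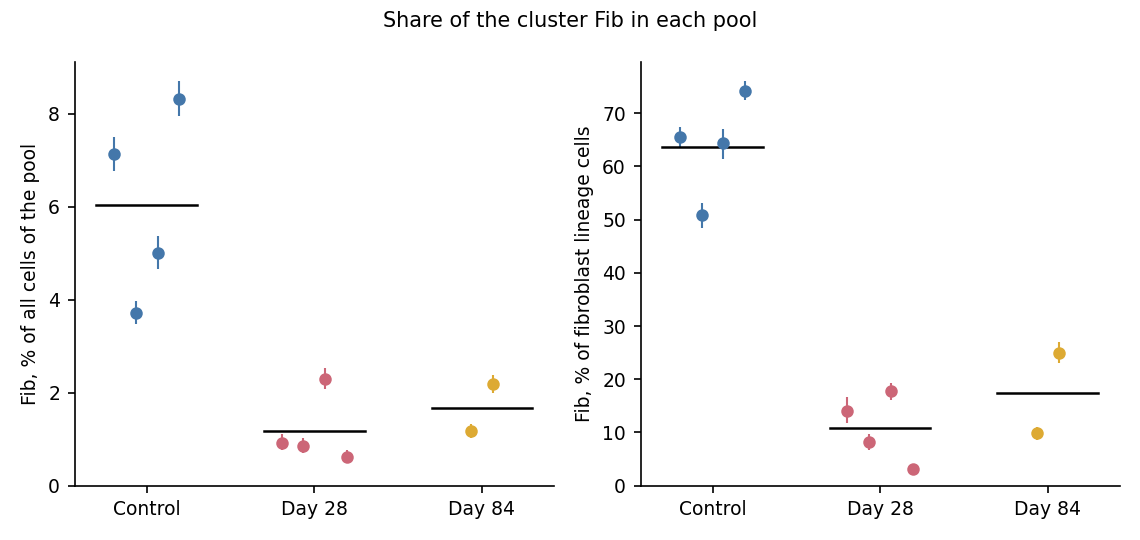
Share of the cluster Fib in each pool, as a percent of all cells (left) and of fibroblast lineage cells (right), for control, day 28 and day 84. Points are pools with 95% exact binomial intervals and black lines are group means. All 6 pools after R-UUO lie below the lowest control pool, at 3.71% of all cells and 50.8% of the lineage.

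A share falls when other cells increase, so fewer Fib cells and more cells of other kinds cannot be told apart from shares alone. The cells were also counted against restricted denominators, which do not remove this ambiguity. Clusters that rose in share stay in them, such as MyoFib (mean 2.33% of all cells in the controls and 10.0% at day 28) and the immune cells (0.164% and 3.54%). MyoFib also stays in the lineage denominator used below. Among cells outside the epithelium (fibroblast lineage, endothelial and immune cells), Fib made up 28.1%, 16.9%, 23.2% and 34.0% in the control pools. It made up 4.83%, 3.42%, 8.34% and 1.68% at day 28, and 4.72% and 11% at day 84. Again all 6 pools after R-UUO lay below the lowest control pool, and the log2 odds change was -3.02 at day 28 and -2.09 at day 84 (adjusted p = 4.97e-04 and 0.0237 in limma). With proximal tubule cells, which belong to the cortex and the outer stripe of the outer medulla, left out of the denominator, the changes were -2.33 and -1.84 (adjusted p = 0.00129 and 0.0180).

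Within the fibroblast lineage the order of the clusters turned over. Fib was 65.4%, 50.8%, 64.3% and 74.3% of lineage cells in the control pools, 14.1%, 8.13%, 17.7% and 3.07% in the day 28 pools, and 9.83% and 25% in the day 84 pools. It was thus the majority of the lineage in all 4 control pools and at most 25% in the 6 pools after R-UUO. On the log2 odds scale this was a change of -4.16 at day 28 (standard error 0.621, adjusted p = 1.96e-04 in limma, 0.0286 in the exact permutation test) and -3.23 at day 84 (standard error 0.760, adjusted p = 0.00637, permutation 0.133). Of the 23 clusters that share a cell type with another cluster, 82.6% passed at day 28 (39.1% lower) and 39.1% at day 84 (13% lower), and Fib had the lowest change of all 23 at both times. The difference of 0.93 between day 84 and day 28 did not pass (adjusted p = 0.475, with 17.4% of clusters passing). It ranged from 0.13 to 1.74 with pools left out one at a time. Without day 84 pool 1 the day 84 change was -2.42 and did not pass.

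Ratios of cell numbers compare Fib directly with its neighbours in the lineage. There were 2.53, 1.41, 2.86 and 3.90 Fib cells per MyoFib cell in the control pools, 0.200, 0.103, 0.253 and 0.0343 at day 28, and 0.121 and 0.388 at day 84. Fib outnumbered MyoFib in 4 of 4 control pools and MyoFib outnumbered Fib in 6 of 6 pools after R-UUO. The log2 ratio changed by -4.44 at day 28 (standard error 0.697, limma adjusted p = 8.49e-05, 75% of 24 ratios passing, all lower) and by -3.53 at day 84 (standard error 0.854, adjusted p = 0.00351, 58.3% passing, all lower). Without day 84 pool 1 the later change was -2.69 and did not pass. Over all pools the exact permutation p of the day 84 change was 0.133. Over the same pools MyoFib was 1.75% to 2.82% of all cells in the controls, 4.61% to 18.1% at day 28, and 9.69% and 5.62% at day 84.

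Against the pericytes the ratio moved in the same direction by less. There were 7.54, 3.85, 4.87 and 11.1 Fib cells per Peri cell in the control pools, 0.923, 0.638, 1.44 and 0.411 at day 28, and 1.09 and 2.34 at day 84. All 6 later ratios lay below the lowest control ratio. The log2 ratio changed by -3.03 at day 28 (standard error 0.585, adjusted p = 3.83e-04 in limma) and by -1.98 at day 84 (standard error 0.716, adjusted p = 0.0324). The day 84 call was lost without control pool 1 (-1.89, adjusted p = 0.0723), control pool 4 (-1.70, adjusted p = 0.0759) or day 84 pool 1 (-1.42). Over all pools its exact permutation p was 0.133. Peri itself ranged from 0.748% to 1.03% of all cells in the controls, from 0.999% to 1.60% at day 28, and was 1.08% and 0.931% at day 84.

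The same ratio was then taken to all 24 other clusters. At day 28 Fib fell relative to 18 of them and rose relative to 0 (limma, threshold adjusted p = 0.05), and 15 of the 18 also had an exact permutation p under 0.05. The ratios to the remaining 6 did not pass. These were Endo_b, an endothelial cluster, and 5 of the 6 clusters grouped here as inner medullary, of which deepIM-CD, IM-CD and IM-TL carry it in their names and ATL, DTL and EndoVR/papilla do not. For deepIM-CD the log2 ratio change was -0.047 (95% interval -1.25 to 1.16), for IM-CD, the inner medullary collecting duct, -0.12 (-1.17 to 0.93), and for ATL, the ascending thin limb, -0.21 (-1.29 to 0.87). For IM-TL, the inner medullary thin limb, it was -0.66 (-2.0 to 0.67), for EndoVR/papilla 0.59 (-0.87 to 2.06) and for Endo_b -0.98 (-2.57 to 0.62). These intervals are wide, and the one for deepIM-CD holds a log2 change of 1 in either direction. Day 28 pool 4 stood apart, with 12.1 Fib cells per EndoVR/papilla cell (8 such cells) against 1.40 to 1.64 in the other day 28 pools, and 0.170 per IM-TL cell against 0.632 to 1.06. Without it the changes were -0.14 for EndoVR/papilla, -0.11 for IM-TL and -0.38 for Endo_b. Those for deepIM-CD and IM-CD also turned sign with single pools left out. The sixth inner medullary cluster, DTL, the descending thin limb, did differ, with Fib falling by 1.70 relative to it (standard error 0.559, adjusted p = 0.0133).

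Relative to the 18 other clusters, Fib fell in 17 comparisons at day 28. The ratio changed most against InjuredLOH, the injured loop of Henle cells (-8.61), PT-S1S2, the proximal tubule segments (-8.39), and InjuredCD, the injured collecting duct cells (-7.92). In the same order, these clusters held only 117, 62 and 56 control cells, a mean of 0.139%, 0.080% and 0.070% of all cells. Their own log2 odds among all cells changed by 6.27, 6.01 and 5.48 at day 28, against -2.55 for Fib. The size of these ratios thus includes the rise of those clusters and is not a measure of Fib loss alone. Besides Endo_b the ratio changed least against OM-CD_a, an outer medullary collecting duct cluster (-1.49, limma adjusted p = 0.0285). Next came IC, the intercalated cells that handle acid and base (-2.01, limma adjusted p = 0.00682, exact permutation p = 0.0571, groups overlapping). The OM-CD_a call was lost without control pool 1 or 4 or day 28 pool 1, 2 or 4 (-1.89 to -1.25 over all pools left out in turn, adjusted p up to 0.0788), and its exact permutation p was 0.0857. The study describes variable amounts of outer medulla in its dissections. Their part in the Fib shares of all cells and in the proximal tubule and outer medullary ratios was not tested.

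At day 84 Fib fell relative to 14 of 24 clusters and rose relative to 0. Over all deposited cells, 0 of the 6 inner medullary ratios passed, including those to DTL (-1.34, limma adjusted p = 0.0967) and IM-CD (-0.89, adjusted p = 0.201). The ratio to Endo_b, which had not passed at day 28, was -2.37 (adjusted p = 0.0394). That call was lost without control pool 1 (adjusted p = 0.0723), 3 (adjusted p = 0.0704) or 4 (adjusted p = 0.0759), or without day 84 pool 1. The change ranged from -3.20 to -1.53 with pools left out one at a time, the latter without day 84 pool 1.

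The inner medullary ratios at day 84 depended on which cells were counted. Among cells with at least 1000 UMIs, a restriction that leaves only 32 and 78 Fib cells in the day 84 pools and removes more of Fib than of the other cells together, the ratios to deepIM-CD (-2.49, limma adjusted p = 0.0144), ATL (-2.18, adjusted p = 0.0325) and DTL (-2.33, adjusted p = 0.0308) passed. These values therefore include the change in UMIs per cell and are not a measure of cell numbers alone. Its ratio to EndoVR/papilla then passed as higher (5.43, adjusted p = 0.00112), with only 1 EndoVR/papilla cell left in day 84 pool 1 and 0 in pool 2, so its size rests on the 0.5 cells added. The ratio to IM-CD turned sign (1.21, adjusted p = 0.254). With at least 500 genes and at most 5% mitochondrial UMIs required, the ratios to DTL (-1.91, adjusted p = 0.0277) and deepIM-CD (-1.61, adjusted p = 0.0404) passed. That gene limit lies above the lower quartile of Fib genes at day 84 (455 and 428) but below it in the control pools (666 to 846). Median genes at day 84 were 528 and 513 for Fib and 745 and 604 for other cells. This filter too removes a larger part of Fib at day 84 than in the controls, so these ratios are not a measure of cell numbers alone.

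Between day 84 and day 28 0 of 24 ratios passed in limma, 2 had an unadjusted p under 0.05, and the lowest adjusted p was 0.276. All 24 ratios share the same Fib counts, so a Fib-poor or Fib-rich pool moves them together. The count at day 84 was 9 without control pool 1 and 7 without day 84 pool 1.

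**Figure D2:**
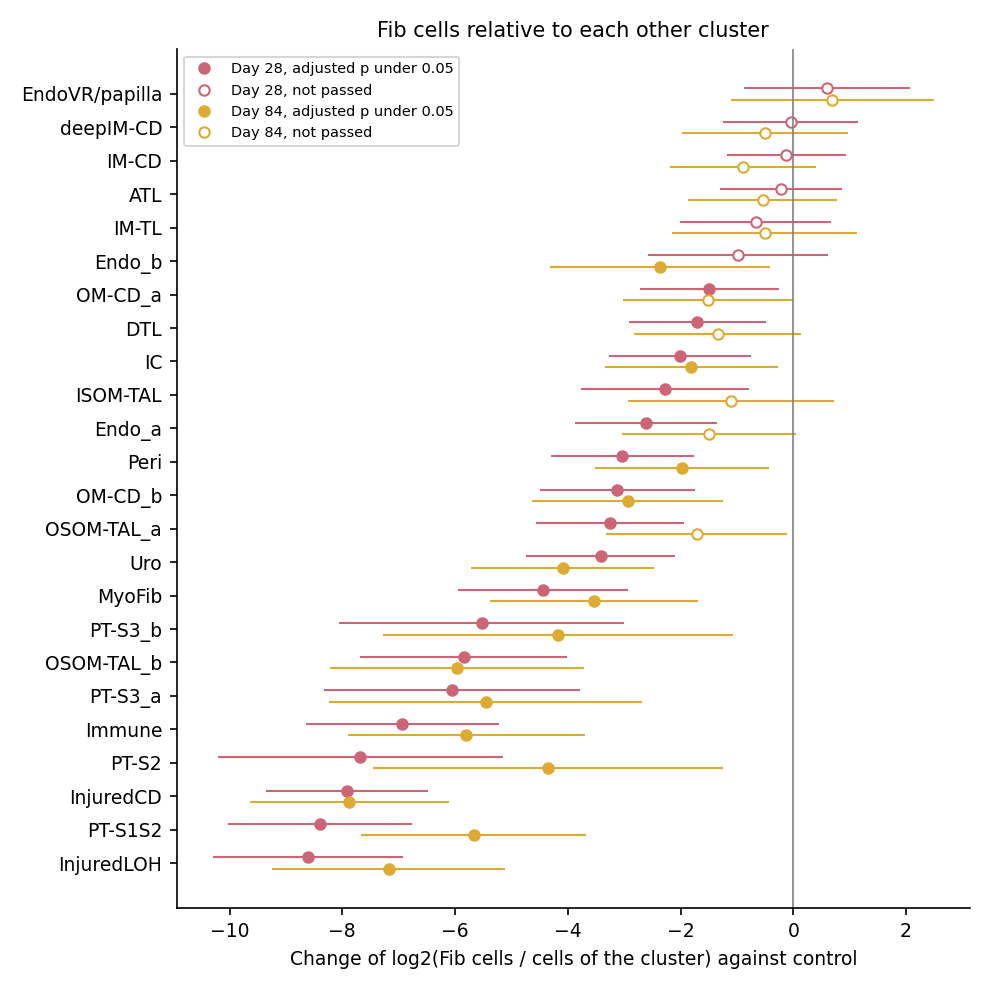
Change, over all deposited cells, of the log2 ratio of Fib cells to cells of each other cluster against control, at day 28 and day 84, with 95% intervals. Filled points passed an adjusted p of 0.05 in limma, and open points did not. The intervals of the 6 inner medullary clusters include 0, except that of DTL at day 28, and InjuredLOH and InjuredCD are among the 3 clusters farthest below 0 at both times, with PT-S1S2 at day 28 and OSOM-TAL_b, a thick ascending limb cluster, at day 84.

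Fib cells differed from the cells around them in how many UMIs they yielded. The median Fib cell held 1085, 1367, 1068 and 1082 UMIs in the control pools, 2207, 1353, 1058 and 792 in the day 28 pools, and 647 and 630 in the day 84 pools. Control and day 28 pools overlapped, while both day 84 pools lay below all others. The log2 change was 0.14 at day 28 (adjusted p = 0.583 in limma, 0.83 in the exact permutation test, 58.8% of 17 clusters passing) and -0.84 at day 84 (standard error 0.303, adjusted p = 0.0183, permutation 0.133, 52.9% passing). The day 84 change did not pass without control pool 2 (-0.76, adjusted p = 0.0558), day 84 pool 1 (-0.86) or day 84 pool 2 (-0.82). Nor did it pass with at least 500 genes and at most 5% mitochondrial UMIs required (-0.55, adjusted p = 0.123). That gene limit lies above the lower quartile of Fib genes at day 84 (455 and 428) but below it in the control pools (666 to 846). It removes gene-poor cells more at day 84 than in the controls, so this filter cannot tell whether the change is fragile. Between day 84 and day 28 the log2 change was -0.98 (adjusted p = 0.0016, permutation 0.133), a comparison in which 100% of the clusters passed. Clusters of a pool share its depth, so limma treats values as independent that are not, and its p-values for UMIs, genes and mitochondrial counts are too small. The permutation p over pools does not have this limit.

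Set against its own pool, the median Fib cell was always the poorer in UMIs, and more so at day 28. The ratio of the Fib median to the median of all other cells was 0.948, 0.854, 0.905 and 0.884 in the control pools, 0.667, 0.610, 0.562 and 0.503 at day 28, and 0.706 and 0.834 at day 84. All 6 values after R-UUO lay under the lowest control value. The log2 change was -0.62 at day 28 (standard error 0.101, adjusted p = 1.53e-04 in limma, 0.0286 in the exact permutation test), where 35.3% of 17 clusters passed. Taken from means of log2 UMIs in place of medians it was -0.36 (adjusted p = 0.0246). At day 84 it was -0.22 (95% interval -0.49 to 0.042, adjusted p = 0.224, permutation 0.133), where 11.8% passed, or -0.064 from means of log2 UMIs (adjusted p = 0.654). The day 84 change passed under the stricter cell filter (-0.25, adjusted p = 0.0250) and against the other lineage cells alone (-0.47, adjusted p = 5.21e-04). The fit against that lineage reference held only 3 clusters, and its exact permutation p was 0.133. Day 84 against day 28 gave 0.40 (adjusted p = 0.109), or 0.46 (adjusted p = 0.0234) without day 28 pool 1, and passed under that filter (0.37) and that reference (0.26) too.

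The position of Fib among the clusters moved accordingly. Ranked by median UMIs from the lowest, among clusters with at least 20 cells in the pool, Fib stood at 10 of 22, 10 of 24, 10 of 21 and 7 of 19 in the control pools. It stood at 5 of 25, 4 of 25, 4 of 25 and 1 of 24 at day 28, and at 3 of 25 and 6 of 25 at day 84. In the controls 26.9% to 30.2% of Fib cells lay in the lowest 25% of their pool by UMIs, against 46.7% to 71.1% at day 28 and 51.7% and 36.3% at day 84. At the other end, 1 of the 6176 Fib cells, in control pool 3, exceeded its pool's 95th percentile of UMIs.

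The comparison with MyoFib, chosen after the data were seen, changed sign. The median Fib cell held 1.25, 1.31, 1.36 and 1.32 times the UMIs of the median MyoFib cell in the control pools. The ratio was 0.787, 0.808, 0.767 and 0.625 at day 28, and 0.902 and 0.904 at day 84. Fib cells were therefore the richer in 4 of 4 control pools and the poorer in 6 of 6 pools after R-UUO. The log2 change was -0.82 at day 28 (exact permutation p = 0.0286) and -0.54 at day 84 (permutation p = 0.133). The ratio to Peri went the same way, from 1.03 to 1.15 in the controls to 0.668 to 0.857 at day 28 and 0.879 and 0.892 at day 84. MyoFib medians themselves were 785 to 1042 UMIs in the controls, 1267 to 2805 at day 28, and 718 and 697 at day 84.

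**Figure D3:**
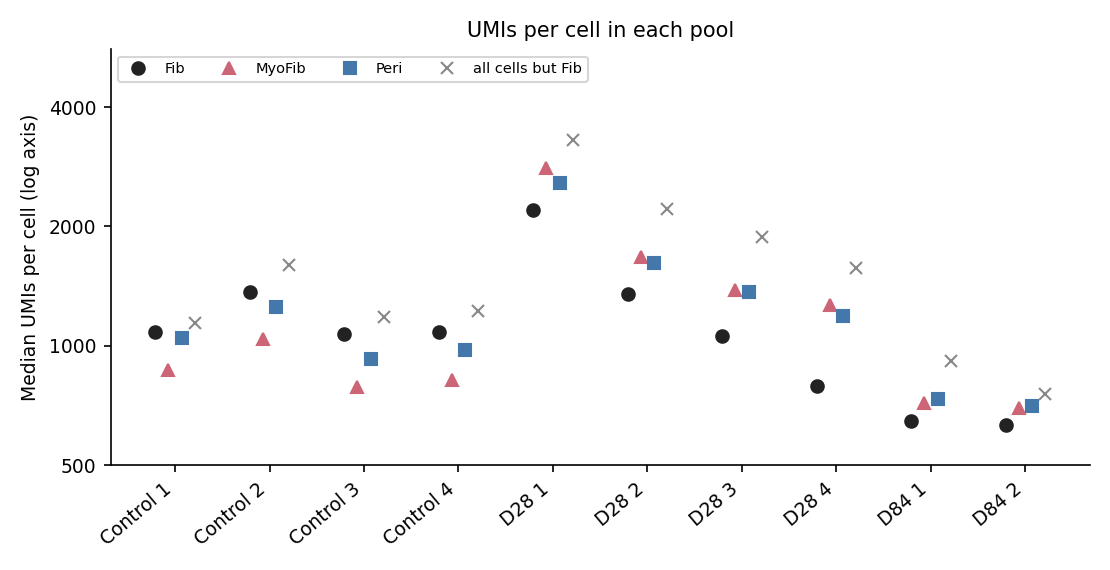
Median UMIs per cell in each pool, on a log axis, for Fib, MyoFib, Peri and all cells but Fib. In each control pool Fib lies above MyoFib and Peri, and in each of the 6 later pools it is the lowest of the 4.

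Since Fib was the poorer part of the lineage in UMIs after R-UUO, its share was also read among cells of like depth, in windows chosen after the data were seen. Between 500 and 1000 UMIs control Fib cells made up 51.6% ± 13.6 (SD, n = 4 pools) of the lineage, day 28 Fib cells 13.9% ± 8.07 (SD, n = 4) and day 84 Fib cells 17.6% ± 9.78 (SD, n = 2). Between 1000 and 2000 UMIs it was 73.6% ± 10.5, 12.7% ± 8.95 and 14% ± 10.3, in the same order. At 2000 UMIs or more it was 68.4% ± 9.90, 6.18% ± 4.78 and 8.36% ± 9.94, the last from only 3 Fib cells among 88 (1 of 75 and 2 of 13), and day 28 pool 4 held 2 of 568. Control and later pools did not overlap in any of the 3 windows.

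The log2 odds changes at day 28 were -2.88, -4.80 and -5.77 from the lowest window to the highest (limma adjusted p = 0.00271, 6.86e-04 and 5.19e-04, exact permutation p = 0.0286 in each). At day 84 they were -2.42, -4.38 and -5.06 (adjusted p = 0.0207, 0.00343 and 0.00519). Whether the changes differed between windows was not tested. As a share of all cells with 500 to 1000 UMIs, Fib changed by -1.45 at day 28 (adjusted p = 0.0200, exact permutation p = 0.0571), against -2.55 over all cells. In that window the groups overlapped, since day 28 pool 3 held 5.11% Fib and control pool 2 held 3.78%. At day 84 the change was -1.65 (adjusted p = 0.0336), and the difference from day 28 was -0.20 (adjusted p = 0.771).

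**Figure D4:**
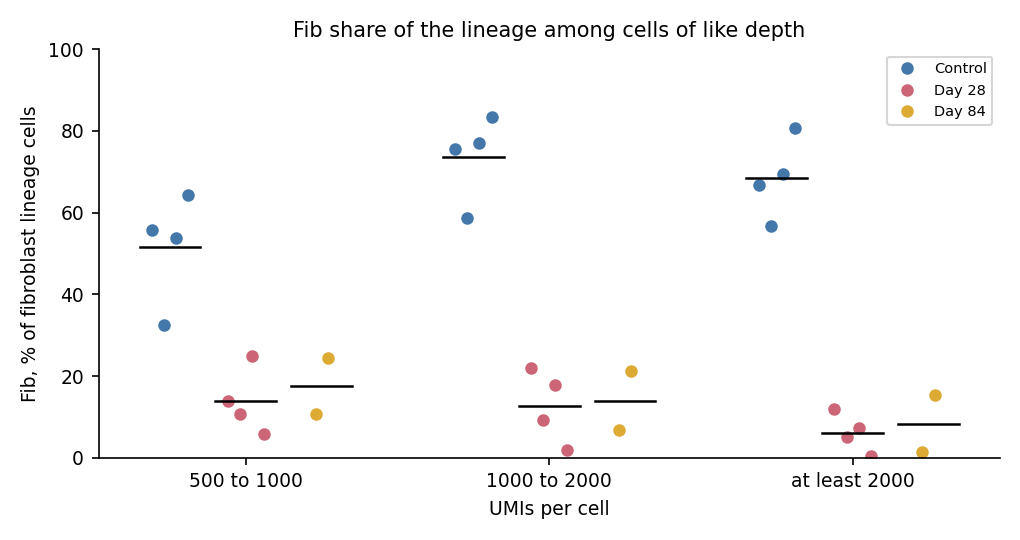
Fib as a percent of fibroblast lineage cells among cells of 500 to 1000, 1000 to 2000 and at least 2000 UMIs. Points are pools and black lines are group means. The control pools sit above all later pools in each window, from 32.4% upward against at most 24.9%.

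The number of detected genes followed the UMIs. The median Fib cell had 908, 1010, 852 and 845 detected genes in the control pools, 1444, 969, 777 and 647 at day 28, and 528 and 513 at day 84. Between them the day 28 pools spanned the whole control range. The log2 change was 0.023 at day 28 (limma adjusted p = 0.904, 58.8% of 17 clusters passing), -0.79 at day 84 (standard error 0.232, adjusted p = 0.00367, exact permutation p = 0.133, 76.5% passing) and -0.82 between day 84 and day 28 (adjusted p = 7.53e-04, permutation 0.133, 100% passing). Without day 84 pool 2 the day 84 change was -0.77 and did not pass.

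Detected genes were also compared at equal UMIs. Read at 750 UMIs from a line through the Fib cells with 500 to 1000 UMIs, a Fib cell had 658, 617, 624 and 620 genes in the control pools, 582, 610, 573 and 610 at day 28, and 599 and 591 at day 84. Every pool after R-UUO was below every control pool. The log2 change at day 28 was -0.085 (standard error 0.0278, adjusted p = 0.0172 in limma, 0.0286 in the exact permutation test, 41.7% of 12 clusters passing). At day 84 it was -0.081 (adjusted p = 0.117, unadjusted 0.0195, 0% of clusters passing). Control pool 1 stood highest, and all its 1394 Fib cells have fractional UMI values. Without it the day 28 change was -0.064, with an adjusted p of 0.0715, and without day 28 pool 3 it was -0.068, with an adjusted p of 0.0869. Read at 1500 UMIs among cells with 1000 to 2000 UMIs, the changes were -0.10 at day 28 (adjusted p = 0.107) and -0.23 at day 84 (adjusted p = 0.00654), so each call depended on the window.

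Fib cells had a lower mitochondrial percent after R-UUO, as did the other clusters tested, with day 28 pool 1 and day 84 pool 1 the least changed in the share of cells without a mitochondrial UMI. The mean mitochondrial percent of Fib cells was 0.797%, 1.47%, 0.857% and 0.756% in the control pools, 0.286%, 0.0101%, 0.0143% and 0.0209% at day 28, and 0.102% and 0% at day 84. Fib cells without a mitochondrial UMI were 0.359%, 0%, 1.11% and 1.54% in the control pools, 25%, 90.0%, 93.4% and 88.7% at day 28, and 63.8% and 100% at day 84. In control pool 2 this was 0 of 904 cells, which allows a share of up to 0.332%.

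The mean percent changed by -0.89 percentage points at day 28 (adjusted p = 1.85e-04 in limma, 0.0286 in the exact permutation test) and by -0.92 at day 84 (adjusted p = 8.29e-04, permutation p = 0.133), and 100% of 17 clusters passed at each time. The log2 odds of having none changed by 9.86 at day 28 and 13.21 at day 84, with 100% of clusters passing as well. Day 84 against day 28 did not pass (3.35, adjusted p = 0.267). Without day 84 pool 1 this difference was 7.95, from day 84 pool 2 alone. With pools left out one at a time the changes from control ranged from 8.85 to 11.07 at day 28 and from 8.61 to 17.81 at day 84. The size of all these values rests on the 0.5 cells added where 0 of 904 or 518 of 518 cells had none. Cells other than Fib had none in 0.0171% to 1.15% of cases in the control pools, 34.7%, 67.2%, 73.1% and 74.2% at day 28, and 59.8% and 96.6% at day 84. This drop was thus not particular to Fib. Within each of the 10 pools Fib cells had a lower mean mitochondrial percent than all other cells together, but they were below MyoFib in only 5 of 10 pools (3 of 4 control, 1 of 4 day 28 and 1 of 2 day 84 pools).

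**Figure D5:**
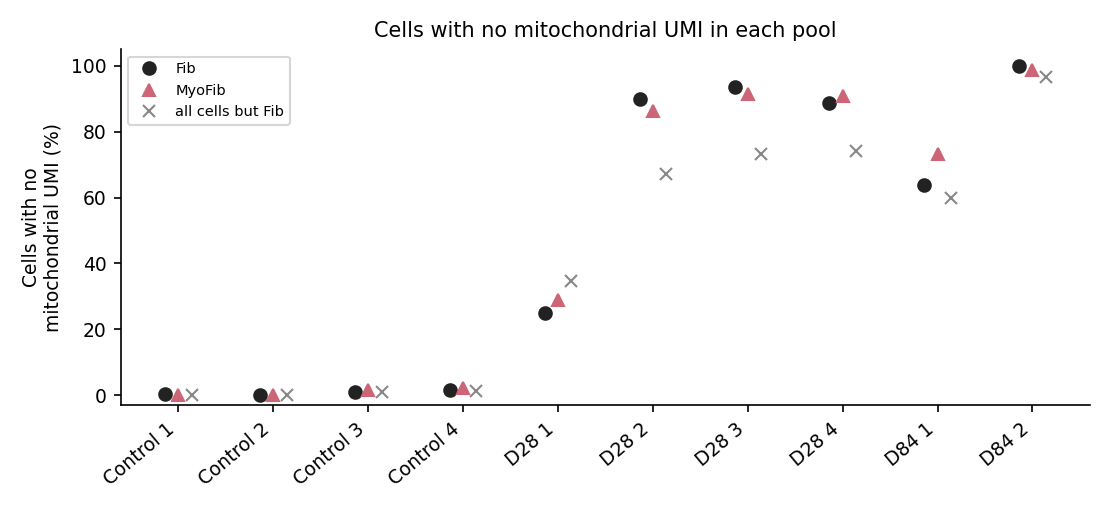
Percent of cells with no mitochondrial UMI in each pool, for Fib, MyoFib and all cells but Fib. The control pools lie under 2.1% for each, and the later pools between 25% and 100%.

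The pools of a group were not alike. At day 28, pool 3 held 379 of the 716 Fib cells and pool 4 held 97, although pool 4 had the most MyoFib cells (2826 against 600 to 1498 in the other day 28 pools). The Fib median in day 28 pool 1 was 2207 UMIs and in pool 4 792, in pools whose other cells had medians of 3308 and 1576. In day 84 pool 2 Fib was 25% of the lineage, above the 17.7% of the highest day 28 pool, and in day 84 pool 1 it was 9.83%, inside the day 28 range.

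The cells that shared a droplet barcode with Fib were also counted. Fib cells were paired with every cell of another pool of their group that carried the same droplet barcode. In the controls the partner was a Fib cell in 202 of 3608 pairs (5.60%), while Fib was 5.99% of cells. At day 28 this was 6 of 449 (1.34% against 1.21% of cells), and at day 84 4 of 179 (2.23% against 1.72%). Fib partners thus came at close to the share of Fib among all cells. Of the deposited Fib cells 0 exceeded the study's limit of 10% mitochondrial UMIs, and 2 fell under its minimum of 300 genes, with 293 genes in day 28 pool 2 and 274 in pool 4.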

How the data were processed

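Per the labels and methods, the authors hybridised fixed, dissociated cells of each pool with a barcoded probe set, excluded cells with fewer than 300 genes or over 10% mitochondrial reads, used SoupX against ambient RNA and scDblFinder against doublets, dropped cells of mixed signature, and clustered with Seurat. Cell Ranger 7.1 and mm10 are named in the submitters' processing notes. The deposited values are, per cell, a UMI count (whole-number counts, but fractional values in control pool 1, handled here like expected counts since their reason is not given in the sources used here), a count of detected genes and a mitochondrial percent, with the pool, cluster and cell type, all taken as given.

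The pool was the replicate, and whether pools are separate surgical cohorts is not given in the sources used here, so p-values measure only the spread between pools. Shares were turned into log2 odds with 0.5 cells added, and ratios into log2 ratios with 0.5 cells added. The 3 groups were fitted together with limma 3.58.1 (R 4.3.3), two-sided, with Benjamini-Hochberg adjustment over all clusters of a fit and a threshold of 0.05. Exact two-sided permutation tests over pools stand beside it, unadjusted over 8 measures and 3 contrasts each, with smallest p of 0.0286 (4 against 4) and 0.1333 (4 against 2). UMI, gene and mitochondrial measures used clusters with at least 20 cells in every pool. Genes at matched UMIs used at least 10 window cells, since day 28 pool 1 holds 14 such Fib cells and the planned 20 gave no value. Clusters named are Fib, its lineage, those grouped as inner medullary (deepIM-CD, IM-CD and IM-TL by name, with ATL, DTL and EndoVR/papilla), and the 3 others whose ratio to Fib changed most and least at day 28. The fits were also run on 200 simulated data sets, whose outcome is not given here and is not used in support of any call. Alternatives were other added counts, filters, denominators, depth windows, edgeR 4.0.16, and leaving out each pool. With a day 84 pool left out that group has a single pool, and only the control and day 28 pools give the spread. The members, lists and tests were chosen with earlier results of these data known. Python 3.11.15, pandas 2.3.3, scipy 1.17.1 and matplotlib 3.10.9 were used.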

Additional observations from a re-analysis of the deposited data

Results flagged for a closer look

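In several groups of 4 pools one pool stood far from the rest, with its gap to the nearest pool divided by the range of the group above the 95% critical value for 4 samples. Of 16 such groups looked at, chance gives such a gap in about 1 of 20. The median UMIs of Fib cells in control pool 2 stood above the other control pools (gap of 0.934 of the range), and so did its mean mitochondrial percent (0.859). In day 28 pool 1 the mean mitochondrial percent stood above the other day 28 pools (0.961), and the log2 odds of having no mitochondrial UMI stood below them (0.835).

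In limma the change from control differed between day 28 and day 84 for Fib UMIs per cell (-0.98, log2, day 84 minus day 28, limma adjusted p = 0.0016) and for Fib genes per cell (-0.82, limma adjusted p = 7.53e-04). The exact permutation p over pools was 0.133 for each, the smallest that 4 pools against 2 can give, and the limma p-values are too small because clusters of a pool share its depth. All 17 clusters tested passed in both comparisons.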

How the results depend on the processing

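The falls of the Fib share of all cells and of the lineage at day 28 passed in limma under every alternative run, with each pool left out in turn included. With pools left out one at a time, the day 84 changes ranged from -2.37 to -1.46 for the share of all cells and from -4.03 to -2.42 for the lineage share, and neither passed without day 84 pool 1. The ratios passing at day 84 numbered 7 to 17 with pools left out, 20 among cells with at least 1000 UMIs and 19 under the stricter filter (at least 500 genes and at most 5% mitochondrial), where the added calls include inner medullary clusters. UMIs per cell at day 84 ranged from -0.88 to -0.76, losing the call without control pool 2 or either day 84 pool, and the stricter filter gave -0.55 (adjusted p = 0.123). Relative to the pool, UMIs at day 84 passed under the stricter filter (-0.25). They also passed in a fit of 2 clusters against MyoFib (-0.54, chosen after the data were seen) and of 3 clusters against all other lineage cells (-0.47). Day 84 against day 28 then passed too (0.37, 0.28 and 0.26), and ranged from 0.28 to 0.52 with pools left out, passing without day 28 pool 1. From means of log2 UMIs these values were -0.36 at day 28, -0.064 at day 84 and 0.30 between them (adjusted p = 0.0246, 0.654 and 0.399). Genes per cell at day 84 ranged from -0.82 to -0.74 and did not pass without day 84 pool 2. Genes at matched UMIs at day 28 ranged from -0.10 to -0.064, not passing without control pool 1 or day 28 pool 3. Read at 1500 UMIs in cells with 1000 to 2000 UMIs, it was -0.10 at day 28 (adjusted p = 0.107) and -0.23 at day 84 (adjusted p = 0.00654). The day 84 against day 28 change in cells without mitochondrial UMIs ranged from -1.25 to 7.95, the latter from day 84 pool 2 alone. Day 84 against day 28 in the share of all cells turned to -0.26 among cells with at least 1000 UMIs and -0.20 among those with 500 to 1000. Requiring 1000 UMIs removes more of Fib than of other cells at day 84, which lowers its share by construction. The 500-gene limit of the stricter filter lies above the lower quartile of Fib genes at day 84 (455 and 428). In the control pools that quartile was 666 to 846, so the filter removes a larger part of Fib at day 84 than there. How much this adds to the shifts under that filter, and the cause of the other shifts, was not tested. With edgeR on cell counts the share changes were -2.36 and -1.85 (adjusted p = 0.00225 and 0.0318). The mitochondrial measures in cells with 500 to 1000 UMIs gave no value for Fib, which has too few such cells in day 28 pool 1.

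No paired analysis was possible because pool numbers only name pools and pair none across groups. Shares in the highest UMI window rest on as few as 1 or 2 Fib cells a pool, and 2 pools at day 84 limit every statement on that time.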
